A study of Mus musculus with 160 samples.

Results

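The 8 genes described here are Nqo1, Hmox1, Txnrd1, Gclm, Gclc, Srxn1 and Slc7a11, which are classical targets of the transcription factor Nrf2, and Nfe2l2, which encodes Nrf2 itself. Nqo1 was chosen because its fall from day 14 to day 17 had been seen in these data, and the other 7 were taken for their known place in the pathway, to ask whether they shared that fall. All 8 were among the 23420 genes measured, and all 8 were above 1 TPM (transcripts scaled to gene length and to the same total in each cell) in more than 30 of the 160 cells, as were 9674 genes in all. Slc7a11 passed this filter with 35 cells, 17 of them from day 14, so its higher level at day 14 is in part a condition of its being counted.

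The cells were single sorted mouse cells of the C57BL/6 strain, derived from pluripotent stem cells that carried Runx1 and Hoxa9 as 1 doxycycline-inducible cassette at the Rosa26 locus, and all 4 groups had received doxycycline. The 65 induced hemogenic endothelial cells (iHECs) were sorted as CD31+CD41lowCD45-c-kit+CD201high. Induced hematopoietic progenitor cells (iHPCs) came from iHECs matured on OP9-DL1 feeder cells, which present a Notch ligand. The maturation medium was supplemented with supernatant of AFT024 lines named for the cytokines SCF, IL3 and Flt3L. The 21 iHPCs of day 14 (day 3 of maturation) and the 18 of day 17 (day 6) were sorted with the same gate, CD45+ and negative for a panel of lineage antigens, whereas a different gate, Ter119-CD45+c-kit+CD127+, was used for the 56 of day 21 (day 10). The effects of time and of the sort cannot be told apart in the step to day 21, or in the step from iHECs to day 14. The media described for differentiation and for maturation both held ascorbic acid, monothioglycerol and iron-saturated transferrin. Since no label ties a cell to a culture or an experiment, a group was treated as 1 sample. The values below are means with the SD between cells, and no p-value is given.

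On GRCm38 the members lie at chr8:107388225-107403206 (Nqo1, minus strand), chr8:75093621-75100589 (Hmox1, plus), chr10:82833951-82897712 (Txnrd1, plus), chr3:122245557-122270732 (Gclm, plus), chr9:77754535-77794485 (Gclc, plus), chr2:152105516-152111376 (Srxn1, plus), chr3:49892526-50443614 (Slc7a11, minus) and chr2:75675513-75704641 (Nfe2l2, minus), and all are protein-coding.

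Nrf2 is made continuously and is bound by Keap1, which presents it to a Cul3-Rbx1 ubiquitin ligase for degradation. Oxidants and electrophiles modify Keap1, and the Nrf2 that then accumulates pairs with a small Maf protein at antioxidant response elements near its target genes, from which Bach1 can displace it. Its targets detoxify quinones and heme, make glutathione and keep thioredoxin and peroxiredoxins reduced, and the level of the Nfe2l2 transcript is not a measure of the Nrf2 protein.

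The core of the antioxidant response element is usually written TGACNNNGC, and the related TGAGNNNGC is bound by the same family of factors. Both were searched on both strands of RefSeq promoter windows of GRCm38.p6, which run from 250 bases before to 50 bases after the start of a transcript. TGACNNNGC was present in 12.4% of 32851 windows, TGAGNNNGC in 17.6%, and one or the other in 27.8%. Windows were given for 6 of the 8 members, and Hmox1 and Gclc had none. Either motif was found in 5 of these 6 genes, and TGACNNNGC in 4 (Gclm, Srxn1, Txnrd1 and Nfe2l2), where 30.8% and 14% of the 27025 genes with a window held them. The 250 bases before the start are shown for Gclm and Srxn1, the members other than Nqo1 that fell most from day 14 to day 17, and for Nqo1, whose window held neither motif. Sequences are in lower case, 5′ to 3′ in the direction of transcription, and capitals mark a motif match on either strand.
Gclm, chr3:122245307-122245556, plus strand: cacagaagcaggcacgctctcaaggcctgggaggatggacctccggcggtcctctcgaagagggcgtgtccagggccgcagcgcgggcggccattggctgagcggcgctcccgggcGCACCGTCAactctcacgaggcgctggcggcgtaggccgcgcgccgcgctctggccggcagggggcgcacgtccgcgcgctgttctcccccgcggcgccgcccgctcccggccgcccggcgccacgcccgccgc
Srxn1, chr2:152105274-152105523, plus strand: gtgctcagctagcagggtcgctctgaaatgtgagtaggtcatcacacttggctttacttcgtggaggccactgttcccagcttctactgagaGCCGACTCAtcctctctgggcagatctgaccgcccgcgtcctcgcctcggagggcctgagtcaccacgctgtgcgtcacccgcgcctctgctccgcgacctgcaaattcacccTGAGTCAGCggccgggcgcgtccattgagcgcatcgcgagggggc
Nqo1, chr8:107403206-107403455, minus strand: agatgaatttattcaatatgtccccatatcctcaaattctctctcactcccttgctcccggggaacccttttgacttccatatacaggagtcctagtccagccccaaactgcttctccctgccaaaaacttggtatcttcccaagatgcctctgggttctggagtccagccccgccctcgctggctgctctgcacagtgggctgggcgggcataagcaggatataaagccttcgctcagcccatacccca
The Gclm match began 134 bases before the start and read GCACCGTCA, the reverse complement of TGACGGTGC. Srxn1 held GCCGACTCA at 158 bases and TGAGTCAGC at 45 bases before its start, both of the TGAGNNNGC form, and GCTAGGTCA, the TGACNNNGC form on the other strand, 29 bases after it. The match at 45 bases also contains TGAGTCA, the letters of an AP-1 site. Slc7a11 held 1 TGAGNNNGC match at 97 bases, Nfe2l2 1 TGACNNNGC match at 240 bases, and Txnrd1 1 TGACNNNGC match at 92 bases before the start of 1 of its 3 windows. These are matches of letters and not measured binding, and bases outside the windows, for Nqo1 as for the others, were not searched. They were found in Txnrd1 and Nfe2l2, which did not pass the fold used below, as well as in Gclm and Srxn1.

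Before the members are described, several libraries must be named because they stood apart. Day-14 cells 4 and 17 summed to 97.8 and 34.6 TPM over 5 blood genes (Ptprc, Myb, Sfpi1, Coro1a and Laptm5), against 1818 to 5722 TPM in the other 19 cells of that day, and held the pluripotency gene Pou5f1 at 972 and 698 TPM, against at most 4.58 TPM in the others. Day-17 cell 9 summed to 11 TPM over the blood genes, against 1139 TPM or more in the other 17, with the epithelial keratin Krt8 at 2306 TPM, although the others reached 1447 TPM of Krt8. These 3 cells go against the CD45+ gate in their labels. Day-14 cell 15 had 3103 genes above 1 TPM, where the median of its group was 8200, and day-21 cell 53 had 3188, with 7 of the 8 members below 1 TPM. Without day-14 cell 15 and day-21 cell 53 the same members passed the fold in each comparison. Without the 3 cells low in blood genes, Gclc also passed it downwards from day 14 to day 17. A further 5 pairs of cells, 4 of iHECs and 1 of day 17 (cells 10 and 11), correlated at 0.963 to 0.991 over the 9674 genes. The next highest pair of iHECs was at 0.699 and of day-17 cells at 0.819, and whether a pair was 1 cell measured again was not tested, since the values are not counts. Day-14 cells were more alike as a group, with a median of 0.819 and a highest pair of 0.956, and none of them were merged. Differences between day 14 and day 17 are given below with all cells and also for 19 against 16 cells, without the 3 cells low in blood genes and with the day-17 pair counted once, a choice made after the values were seen. The number of genes above 1 TPM had a median of 4926 among iHECs, 8101 for day-17 and 6695.5 for day-21 iHPCs, and the read depth is not known from these values.

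Differences are of mean log2(TPM + 1), the later group minus the earlier. Since the median of all 9674 genes moved by 0.93 from iHEC to day 14, by 0.28 from day 14 to day 17 and by -0.74 from day 17 to day 21, each difference is given relative to that median, and a gene is said to have risen or fallen, or to have passed the fold, where it differed by at least 1. Shares of cells above 1 TPM carry exact 95% Clopper-Pearson intervals, which cover counting error only.

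From day 14 to day 17, 5 of the 8 members fell and none rose, against 7.09% of all genes that fell and 9.03% that rose. Nqo1 is among the 5, and its fall is what it was selected on. Of the 6 other targets, Gclm, Srxn1, Slc7a11 and Hmox1 fell, while Txnrd1 and Gclc did not reach the fold, and neither did Nfe2l2. All 8 relative differences lay below 0, with a median of -1.70. With the difference as such, not relative to the median, the same 5 members passed the fold, and 3.89% of all genes fell and 15.5% rose.

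Nqo1 encodes NAD(P)H quinone dehydrogenase 1, which reduces quinones without a radical intermediate. Cells above 1 TPM numbered 10 of 65 among iHECs (15.4%, with an interval of 7.63 to 26.5), 20 of 21 on day 14 (95.2%, 76.2 to 99.9), 8 of 18 on day 17 (44.4%, 21.5 to 69.2) and 49 of 56 on day 21 (87.5%, 75.9 to 94.8). Its lowest, median and highest values were 0, 0 and 382 TPM for iHECs. They were 0, 108 and 510 TPM on day 14, 0, 0.287 and 85.8 TPM on day 17, and 0, 60.1 and 428 TPM on day 21. The transcript was thus found in few iHECs, nearly all day-14 cells, a minority of day-17 cells and most day-21 cells, and the ranges of all 4 groups overlapped. The day-14 cell at 0 TPM was cell 15, the one with few genes detected, and 13 of the 21 day-14 cells lay above the highest day-17 cell. On the log2 scale the means were 0.90 ± 2.23 (SD, n = 65), 6.42 ± 1.74 (n = 21), 2.13 ± 2.54 (n = 18) and 5.36 ± 2.50 (n = 56). The relative difference from day 14 to day 17 was -4.57, the third lowest of the 9674 genes, and -4.42 for the 19 and 16 cells.

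**Figure D1:**
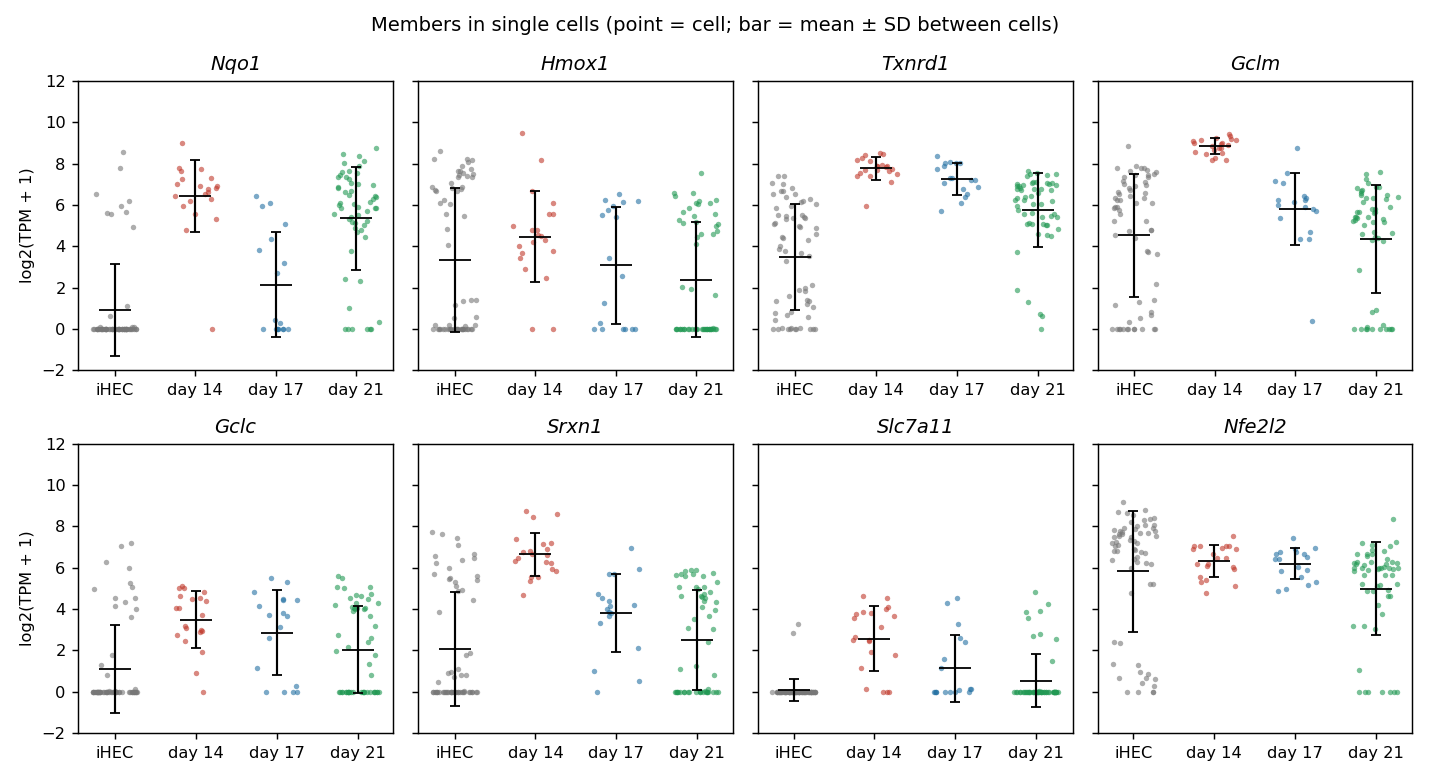
log2(TPM + 1) of the 8 members (panels) in every cell of the 4 groups; each point is a cell and the bar is the mean ± SD between cells. The day-14 points of Gclm form a tight band at 8.84 ± 0.38 that lies above nearly all day-17 points, while those of Nfe2l2 at 6.32 ± 0.76 and 6.18 ± 0.75 overlap.

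The 3 members that make glutathione or supply its cysteine did not move to the same extent. Gclm encodes the modifier subunit of glutamate-cysteine ligase, which catalyses the first and limiting step of glutathione synthesis. It was above 1 TPM in all 21 day-14 cells, at 287 to 686 TPM with a median of 484 TPM, and in 17 of 18 day-17 cells, at 0.294 to 434 TPM with a median of 66.1 TPM. In 17 of the 18 day-17 cells Gclm was lower than in the lowest day-14 cell, and the exception was cell 18. The mean fell from 8.84 ± 0.38 to 5.80 ± 1.74, a relative difference of -3.31 and the 20th lowest of all genes, and -3.37 for the 19 and 16 cells. In iHECs the median was 57.2 TPM and 49 of 65 cells (75.4%, 63.1 to 85.2) were above 1 TPM, and at day 21 the median was 39.8 TPM and 42 of 56 cells (75%, 61.6 to 85.6).

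Gclc encodes the catalytic subunit of the same ligase, and its values overlapped between the days. Of the day-14 cells 19 of 21 exceeded 1 TPM, and of the day-17 cells 13 of 18, with medians of 12.1 and 11.9 TPM and highest values of 33.3 and 43.7 TPM. The mean went from 3.47 ± 1.38 to 2.86 ± 2.04, a relative difference of -0.89, which is smaller than the SD in either group. It was -1.05 for the 19 and 16 cells, just past the fold, which made 6 of the 8 members lower where 7.73% of all genes were. Gclc was at 0 TPM in the median iHEC and at 1.96 TPM in the median day-21 cell.

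Slc7a11 encodes the cystine-importing chain of the cystine-glutamate exchanger, and its median TPM, a level per gene length, was the lowest of the 8 at day 14. It was above 1 TPM in 2 of 65 iHECs (3.08%, 0.375 to 10.7), 17 of 21 day-14 cells (81.0%, 58.1 to 94.6), 7 of 18 day-17 cells (38.9%, 17.3 to 64.3) and 9 of 56 day-21 cells (16.1%, 7.62 to 28.3). Day-14 cells reached 23.6 TPM with a median of 5.31 TPM, and day-17 cells reached 22.3 TPM with a median of 0.0599 TPM. The relative difference was -1.73, from 2.57 ± 1.55 to 1.12 ± 1.6, and -1.83 for the 19 and 16 cells, while with a pseudocount of 10 in place of 1 it was -0.60 and short of the fold. The partner chain of the exchanger, Slc3a2, which also serves other amino acid carriers, went from 8.41 ± 0.65 to 8.09 ± 0.69, a relative difference of -0.60.

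The 2 members of the thioredoxin and peroxiredoxin system parted. Srxn1 encodes sulfiredoxin, which restores over-oxidised peroxiredoxins. It was above 1 TPM in all 21 day-14 cells, at 24.4 to 429 TPM with a median of 98.2 TPM, and in 16 of 18 day-17 cells (88.9%, 65.3 to 98.6), at 0 to 124 TPM with a median of 15.8 TPM. Day-17 cells lay below the lowest day-14 cell in 13 of 18 cases. The mean fell from 6.64 ± 1.06 to 3.81 ± 1.88, a relative difference of -3.11, the 24th lowest of all genes, and -3.33 for the 19 and 16 cells.

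Txnrd1 encodes cytosolic thioredoxin reductase, which keeps thioredoxin reduced. All day-14 and all day-17 cells held it above 1 TPM, at 60.5 to 362 TPM (median 228) and 50.7 to 332 TPM (median 152), so the ranges nearly coincided. The mean went from 7.77 ± 0.56 to 7.26 ± 0.76, a relative difference of -0.79, and -0.79 again for the 19 and 16 cells. Txnrd1 overlaps the coding gene Eid3 in the annotation, and how reads of the overlap were assigned is not stated.

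Hmox1 encodes heme oxygenase 1, which opens heme to biliverdin, carbon monoxide and iron. It was above 1 TPM in 34 of 65 iHECs (52.3%, 39.5 to 64.9), 19 of 21 day-14 cells (90.5%, 69.6 to 98.8), 11 of 18 day-17 cells (61.1%, 35.7 to 82.7) and 26 of 56 day-21 cells (46.4%, 33 to 60.3). At day 14 the median was 21.7 TPM and at day 17 it was 7.41 TPM, and the highest values were 711 and 91.0 TPM. The day-14 cell at 711 TPM was cell 17, 1 of the 2 with pluripotency genes. The mean went from 4.47 ± 2.22 to 3.07 ± 2.83, a relative difference of -1.67 that passed the fold but was smaller than the SD in either group. It was -1.26 for the 19 and 16 cells and, with a pseudocount of 10, -0.72 and short of the fold.

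Nfe2l2 was above 1 TPM in every day-14 and day-17 cell, at 26.7 to 187 TPM (median 86.2) and 28.7 to 173 TPM (median 85.2). Its mean went from 6.32 ± 0.76 to 6.18 ± 0.75, a difference of -0.15 as such and of -0.42 relative to the median. Its level overlapped in the 2 groups almost throughout, in contrast to Gclm and Srxn1, and that contrast was not tested. In iHECs the median was 138 TPM with 54 of 65 cells above 1 TPM, and at day 21 it was 59.6 TPM with 49 of 56.

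**Figure D2:**
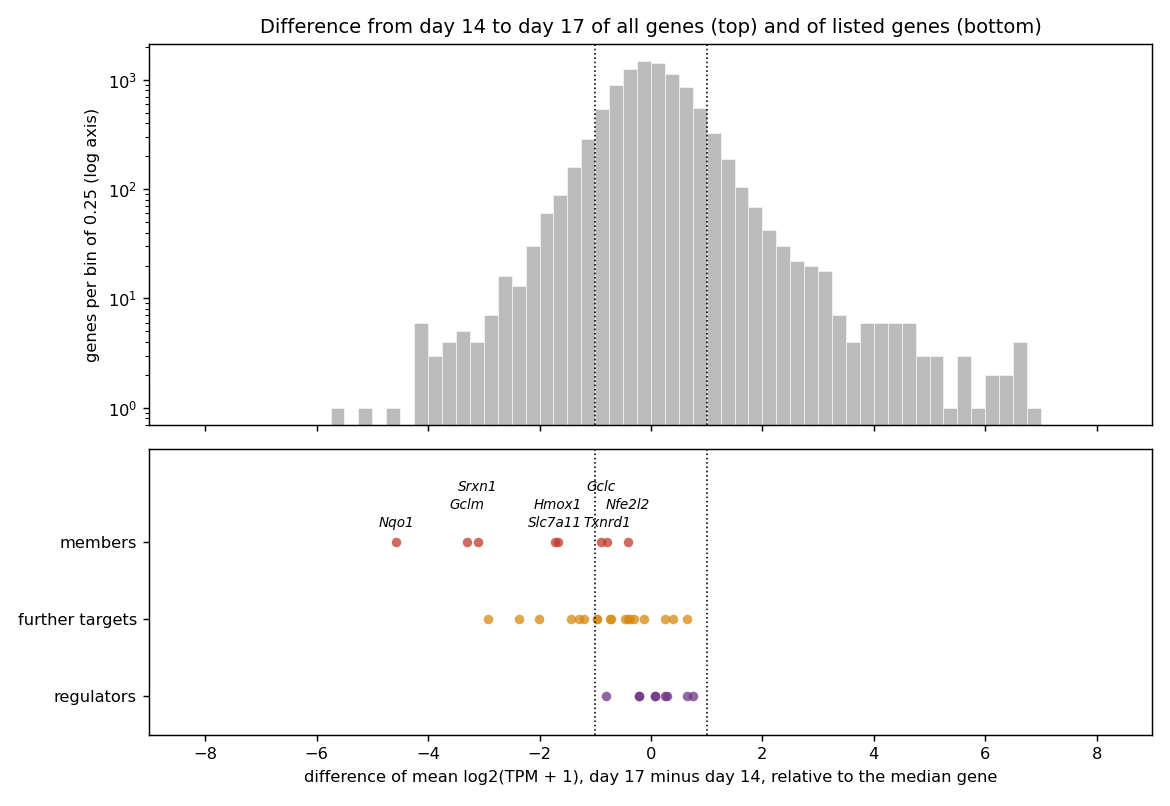
Differences of mean log2(TPM + 1) from day 14 to day 17 relative to the median gene, for all 9674 genes (top, a histogram with a log axis) and for the members, the further Nrf2 targets and the regulators that passed the filter (bottom, 1 point per gene); dotted lines mark the fold of 1. Nqo1 at -4.57, Gclm at -3.31 and Srxn1 at -3.11 lie in the far left tail, and the regulators lie within the lines, where Keap1 at 0.76 would be at 1.03 as such.

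Averaged over the 7 targets in each cell, log2(TPM + 1) had means of 2.22 ± 1.21 for iHECs and 5.74 ± 0.63, 3.72 ± 0.70 and 3.27 ± 1.37 for the iHPCs of days 14, 17 and 21. This mean includes Nqo1, whose fall was the basis of its choice, and it differed from day 14 to day 17 by -2.29 relative to the median. Over the 6 targets without Nqo1 the mean went from 5.63 ± 0.63 to 3.99 ± 0.72, a difference of -1.64 as such and of -1.92 relative to the median, both larger than the SD in either group. These 6 were above 1 TPM together in 16 of 21 day-14 cells, 2 of 18 day-17 cells and 3 of 56 day-21 cells.

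**Figure D3:**
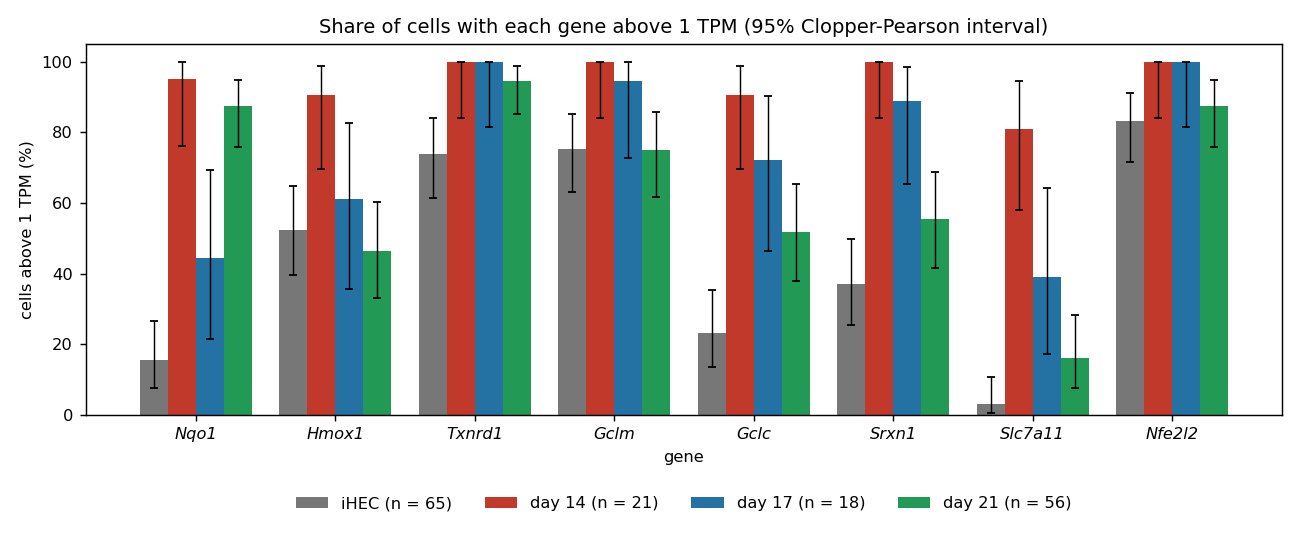
Share of cells above 1 TPM (%) for each member in 65 iHECs and in 21, 18 and 56 iHPCs of days 14, 17 and 21; whiskers are exact 95% Clopper-Pearson intervals. Every member is above 1 TPM in at least 81.0% of day-14 cells, and the day-17 share is lowest for Slc7a11 at 38.9% and Nqo1 at 44.4%.

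A list of 21 further Nrf2 targets, of which 18 passed the filter on low values, held 6 genes that fell from day 14 to day 17 and none that rose, with a median of -0.73. Of all genes, 7.09% fell and 9.03% rose. Pir, which encodes the iron-binding protein pirin, was at 0 to 183 TPM (median 35.8) at day 14 and 0 to 65.6 TPM (median 5.35) at day 17, a relative difference of -2.92. Blvrb, biliverdin reductase B, went from a median of 70.1 to 31.3 TPM (-2.36), and Osgin1, an oxidative stress-induced growth inhibitor, from 15.2 to 0 TPM (-2.01). Me1, the cytosolic malic enzyme that yields NADPH, differed by -1.43.

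Both ferritin chains, which store iron, were also among the 6. Fth1, the heavy chain, lay at 3771 to 14084 TPM at day 14 and 3230 to 5343 TPM at day 17 and differed by -1.29. Ftl1, the light chain, lay at 11096 to 29332 TPM and 6295 to 26830 TPM and differed by -1.21, or by -0.93 as such and short of the fold. It was named beside its partner after its value was seen, as the sixth of its list. In contrast, the genes of the pentose phosphate pathway, which makes NADPH, stayed short of the fold. G6pdx differed by -0.97, Pgd by -0.74, Taldo1 by -0.46 and Tkt by 0.39. Gsr, glutathione reductase, differed by -0.30, and Txn1 and Prdx1 by -0.97 and -0.72. Without the 3 cells low in blood genes and with pairs counted once, the 6 were joined by G6pdx (-1.09), and Gsta4, a glutathione transferase, passed the fold upwards (1.54). Of all genes, 7.73% then fell and 9.46% rose.

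Of 11 genes that regulate Nrf2 or bind the same element, 9 passed the filter and none rose or fell between day 14 and day 17. Of all genes, 9.03% rose and 7.09% fell. Keap1 went from 4.57 ± 1.79 to 5.60 ± 1.58, a relative difference of 0.76 with medians of 32.9 and 60.8 TPM, while as such it differed by 1.03 and passed the fold. Bach1 differed by -0.21, and the small Maf genes Mafg and Mafk by 0.07 and 0.65.

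Other pathways that share genes or inducers with Nrf2 were read the same way, beside the 7.09% of all genes that fell and the 9.03% that rose. Among 9 other glutathione genes, 6 passed the filter and Ggct, gamma-glutamylcyclotransferase, fell (-1.72), while the glutathione peroxidases Gpx1 and Gpx4 differed by -0.26 and -0.24. Among 11 genes against peroxide and superoxide, Prdx4 and Prdx3, peroxiredoxins of the endoplasmic reticulum and of mitochondria, fell by 2.14 and by 1.18, and 9 did not pass. None of the 7 heme and iron genes that passed the filter rose or fell. Of 7 genes of the ATF4 amino acid stress response, which also induces Slc7a11, 3 fell, namely Trib3 (-2.27), Asns (-1.99) and Sesn2 (-1.43), while Atf4 itself differed by -0.85. The 2 genes of the aryl hydrocarbon receptor list that passed the filter, Ahr and Tiparp, differed by 0.25 and 0.07. That receptor is another inducer of Nqo1.

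Lineage genes moved over the same interval. Csf1r, the receptor of macrophage colony-stimulating factor, passed 1 TPM in 19 of the 21 cells of day 14 but 5 of the 18 of day 17, and Mpo, myeloperoxidase of granulocyte precursors, in 17 and 4. Neither gene passed the filter on low values. Of the other neutrophil and monocyte genes, Elane passed 1 TPM in 12 and 4 cells, and Prtn3 in 19 and 17. Lyz2 did so in 8 and 8 cells, Ly6c2 in 1 and 6, and Ctsg in 0 and 2. The summed level of the 6 neutrophil and monocyte genes was 0.787 to 1850 TPM (median 564) at day 14 and 0.983 to 9009 TPM (median 52.8) at day 17, and that of the 7 macrophage genes 0 to 386 TPM (median 119) and 0 to 509 TPM (median 28.2). Of these 7, Mrc1, C1qa, C1qb and Marco were above 1 TPM in no cell of either day. Lck, a kinase of T and NK lineage cells, went the other way, from 0 to 34.4 TPM (median 5.78) to 0 to 1328 TPM (median 681). At day 14 the T-lymphoid genes Cd3g, Cd3e and Cd3d were above 1 TPM in no cell. They stayed nearly absent at day 17, with Cd3g in 1 of 18 cells, Cd3d in 2 and Cd3e in none. Bcl11b, of the same list, was above 1 TPM in 1 day-14 cell and no day-17 cell. The 6 stromal genes, of the kind feeder cells express, summed to 0 to 36.6 TPM (median 3.35) at day 14 and 0 to 116 TPM (median 53.2) at day 17. Most of the day-17 sum was Pdgfrb, with a median of 52.6 TPM and a highest value of 116 TPM. Col1a1, Col1a2 and Dcn were above 1 TPM in 0, 1 and 1 day-14 cells and in 2, 1 and 0 day-17 cells. Pdgfrb rose by 3.09, while Col3a1 and Lum were listed at 0 in every cell, with an exact upper limit on the share of cells above 1 TPM of 16.1% at day 14 and 18.5% at day 17. Taking 3 cells as the limit of a count of 0 gives up to 14.3% and 16.7%. The part of this lineage shift in the fall of the Nrf2 targets was not tested.

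Within day 17, the 2 cells above 100 TPM of Csf1r, cells 1 and 18, had Mpo at 5725 and 553 TPM and Lck at 0.222 and 0 TPM. They were also the 2 cells with the highest Gclm, at 186 and 434 TPM, and the highest Slc7a11, at 18.7 and 22.3 TPM. The other 16 day-17 cells had Gclm at 0.294 to 144 TPM and Slc7a11 at 0 to 8.79 TPM. Srxn1 was highest in cell 18 (124 TPM), but at 20.2 TPM in cell 1 it lay within the 0 to 60.7 TPM of the other 16. Nqo1 did not follow, with 0 TPM in cell 1 and 19.5 TPM in cell 18, against 0 to 85.8 TPM in the others. These cells were picked out after their values were seen. Over the 21 day-14 cells, Gclm correlated with Csf1r at a Pearson r of -0.12 and with Mpo at 0.05. For Slc7a11 the 2 values were 0.39 and 0.01, for Srxn1 0.31 and 0.05, and for Nqo1 0.08 and 0.10.

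**Figure D4:**
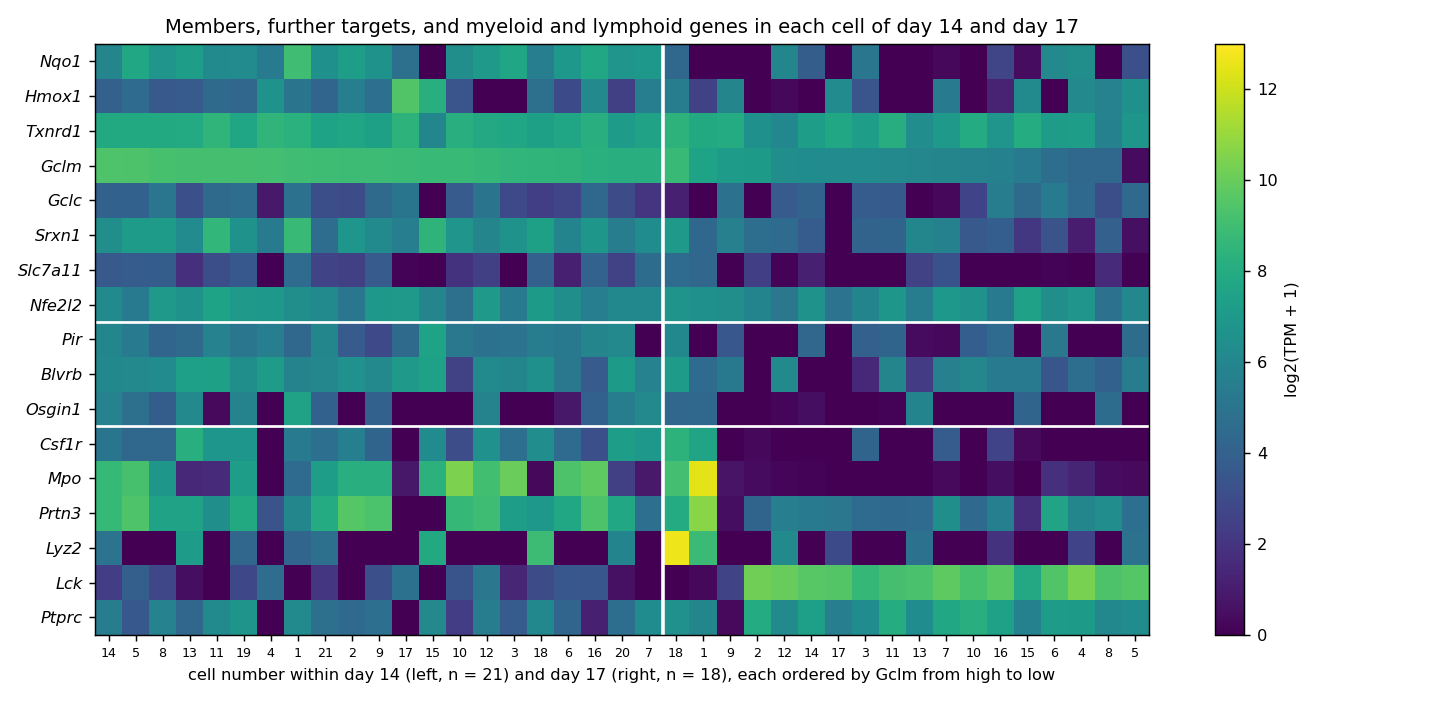
log2(TPM + 1) (colour) of the 8 members, 3 further Nrf2 targets, and myeloid and lymphoid genes (rows) in each cell of day 14 (left) and day 17 (right), ordered by Gclm within each day; numbers under the columns are the cell numbers. At day 17 the leftmost cells, 18 and 1, hold Gclm at 434 and 186 TPM together with Csf1r and Mpo, while 15 of the other 16 hold Lck well above the day-14 cells.

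From iHEC to day 14, the step before, 6 of the 8 members rose and none fell, against 27.3% of all genes that rose and 24.4% that fell. With the difference as such the members that rose were 7, and 48% of all genes rose and 11.5% fell. The relative rises were 4.59 for Nqo1, 3.65 for Srxn1, 3.38 for Gclm, 3.35 for Txnrd1, 1.55 for Slc7a11 and 1.45 for Gclc, while Hmox1 differed by 0.21 and Nfe2l2 by -0.44. With a pseudocount of 10, Slc7a11 and Gclc were short of the fold at 0.52 and 0.49. Gclm in all 21 day-14 cells was above 64 of the 65 iHECs, and Txnrd1 in every day-14 cell above 50 of them. For Nfe2l2, 23 iHECs lay above and 16 below the whole range of day-14 cells.

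The further targets that rose from iHEC to day 14 numbered 8 of 18, where 27.3% of all genes rose and 24.4% fell. They included the pentose phosphate genes G6pdx (4.23), Pgd (3.75) and Taldo1 (3.54), and Pir (3.35). Sqstm1, which encodes the autophagy receptor p62 and can also bind Keap1, was the 1 that fell (-1.62), but as such it differed by -0.69, and the list then held 14 genes higher and 0 lower. As such, 48% of all genes rose and 11.5% fell. Among the 9 regulators that passed the filter 4 rose, including Keap1 by 1.25, Mafg by 1.61 and Mafk by 1.24, while Rbx1 and Maff fell. This comparison shares the day-14 cells with the one above, so a high value at day 14 enters both, with opposite sign.

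From day 17 to day 21, Nqo1 alone of the 8 members rose and none fell, against 10.3% of all genes that rose and 13.1% that fell. Nqo1 rose by 3.96, and 21 of the 56 day-21 cells were above the highest day-17 cell. This comparison shares the day-17 cells with the step that Nqo1 was chosen on, so its low day-17 value enters both, with opposite sign. Its contrast with the other members here is therefore a description only. The other 7 relative differences were -0.78 for Txnrd1, -0.72 for Gclm, -0.55 for Srxn1, -0.46 for Nfe2l2, -0.11 for Gclc, 0.06 for Hmox1 and 0.15 for Slc7a11. As differences not relative to the median, Txnrd1 (-1.52), Gclm (-1.46), Srxn1 (-1.29) and Nfe2l2 (-1.20) passed the fold downwards, where 38.5% of all genes fell and 2.33% rose, and Nqo1 still rose, by 3.22. The mean over the 6 targets without Nqo1 differed by -0.32 relative to the median and by -1.06 as such, the latter larger than the SD of day 17 and smaller than that of day 21. With Nqo1 included the relative difference was 0.29 and that as such -0.45.

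**Figure D5:**
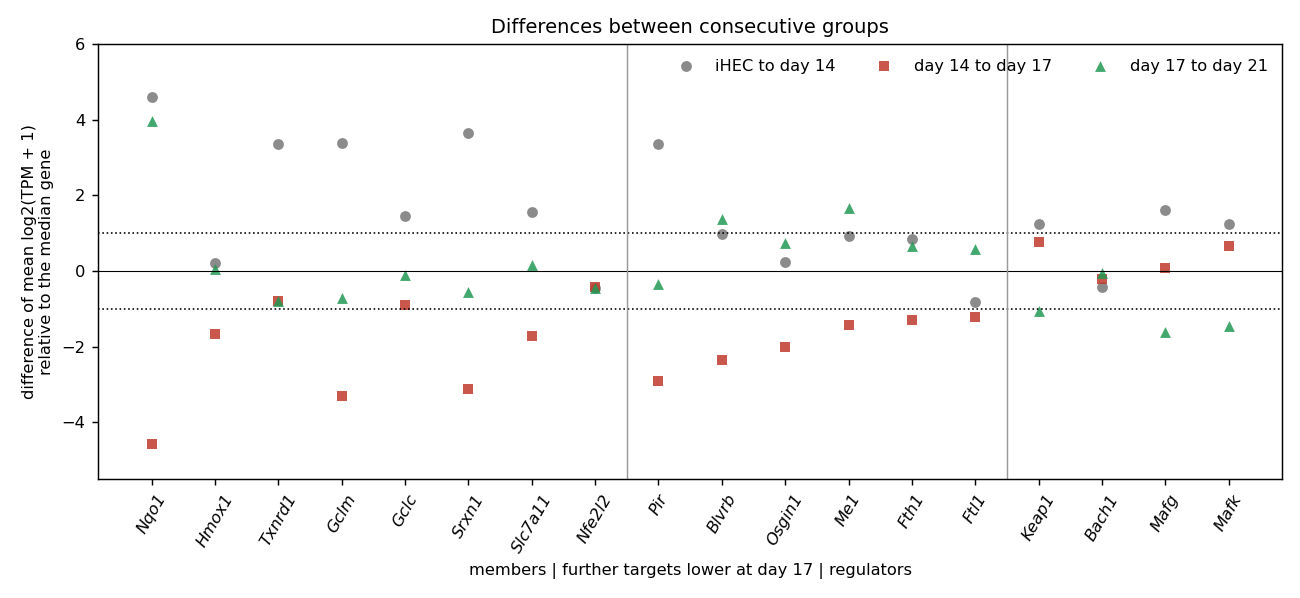
Differences of mean log2(TPM + 1) relative to the median gene for the 8 members, the 6 further targets that fell at day 17 and 4 regulators, in the 3 consecutive comparisons (symbols); dotted lines mark the fold of 1. Nqo1 is the member past the fold in all 3, at 4.59, -4.57 and 3.96, and the other members lie within the lines from day 17 to day 21. Nqo1 was chosen on its fall to day 17, and its low day-17 level enters the last step with opposite sign.

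Of the further targets, 4 of 18 rose from day 17 to day 21, namely Gstp1 (1.69), Me1 (1.66), Blvrb (1.38) and Txn1 (1.26), and Gsr fell by 1.04, against the 10.3% and 13.1% of all genes. As differences as such, none of these 4 passed the fold (0.95, 0.92, 0.64 and 0.52), and the list held 6 genes lower and 0 higher, where 38.5% and 2.33% of all genes were. Relative to the median, 5 of the 9 regulators that passed the filter fell, among them Keap1, Mafg and Mafk by 1.05, by 1.61 and by 1.45. Cul3 and Rbx1 rose. Day-21 cells also held mast cell genes. A list of 6 (Cpa3, Mcpt4, Cma1, Fcer1a, Ms4a2 and Tpsb2, the last above 1 TPM in no cell) summed to 28.6 to 80324 TPM (median 1467) against 0 to 139 TPM (median 11) at day 17. Across the 56 day-21 cells Nqo1 correlated with Mcpt4 at a Pearson r of 0.29, below the 0.42 of Txnrd1, the 0.41 of Gclm and the 0.39 of Hmox1, which did not rise. With Cpa3 the order differed, at 0.28 for Nqo1, 0.23 for Txnrd1, 0.20 for Gclm and 0.35 for Hmox1. The number of genes above 1 TPM correlated with Txnrd1 at 0.60 and Gclm at 0.61, and with Nqo1 at 0.29 and Hmox1 at 0.23. The part of mast cell genes in the higher Nqo1 at day 21 was not tested.

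By mean level, Nqo1 was ordered day 14, day 21, day 17 and iHEC, and in this order only the step from day 21 to day 17 exceeded the SD of both groups. Gclm and Nfe2l2 were ordered day 14, day 17, iHEC and day 21, Hmox1 day 14, iHEC, day 17 and day 21, and the other 4 members day 14, day 17, day 21 and iHEC. Between neighbours in these orders, the step from day 14 to day 17 exceeded the SD of both groups for Gclm and Srxn1, and no other step did for the 7 members besides Nqo1.

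Across the 160 cells, apart from the differences between groups, the members were only loosely tied. After the mean of each group was subtracted, the 28 pairs of members had Pearson r of -0.04 to 0.27 (median 0.13) across the 160 cells, which differ in the number of genes detected. With a trend over that number also removed, the median was 0.06. With group means alone subtracted, Nqo1 correlated with the other members at 0.05 (Nfe2l2) to 0.17 (Gclc). Among the 9674 genes these ranked 5310th and 1014th in likeness to Nqo1. The 5 genes most like it were Cdc16 (0.42), Cln8 (0.39), Pisd (0.38), Hsph1 (0.38) and Ehbp1l1 (0.37). Without subtracting group means they were Tuba4a (0.64), Serpinb1a (0.62), Dok2 (0.61), Milr1 (0.60) and Coro1a (0.60), and Txnrd1 was at 0.41. Within day 17 alone the 28 pairs ranged from -0.73 (Gclc with Slc7a11) to 0.68 (Txnrd1 with Nfe2l2) with a median of 0.02, over 18 cells that include the near-identical pair and cell 9. The median was 0.10 within iHECs and 0.13 within day 14. It was highest within day 21, at 0.20 over 56 cells, where 25 pairs were above 0 and the range was -0.07 to 0.57 (Txnrd1 with Gclm). These values were not corrected for the number of genes detected.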

How the data were processed

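Single-cell libraries were made by the authors with a whole-transcriptome amplification kit (Discover-sc WTA Kit V2) and a transposase library kit. The submitters' processing notes list HISAT2 2.1.0, SAMtools 0.1.19 and StringTie 1.3.4 with the mm10 build. The deposited values are TPM, scaled by the authors to gene length and to nearly the same total in every cell, so read counts and depth are not given. All 160 columns were mapped to cells by title, and 0 were left unused.

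From these values log2(TPM + 1) was computed with Python 3.11.15, numpy 2.4.6, pandas 2.3.3 and scipy 1.17.1. Genes above 1 TPM in more than 30 cells were kept, and all 126 listed genes were found (80 in pathway lists, 46 markers, of which Adgre1 is listed as Emr1). No test was run, because each group is 1 sample; the procedure was tested on simulated data. Members and lists were chosen with earlier results of these data known. Named genes were the members, list genes past the fold from day 14 to day 17 (at most 5 per list and direction), Keap1, Bach1, Mafg, Mafk, and the 5 genes most like Nqo1; others, Ftl1 among them, were named after their values were seen. Alternatives covered the pseudocount, size factors, medians, filters, thinly covered cells and centring. Motifs were searched in RefSeq promoter windows (GRCm38.p6), whose orientation was checked against GENCODE transcripts.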

Additional observations from a re-analysis of the deposited data

How the results depend on the processing

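The direction of all called member differences was the same under every alternative run, and Nqo1, Gclm and Srxn1 stayed past the fold from day 14 to day 17 in each (-6.60 to -2.69, -3.48 to -2.86 and -3.53 to -2.18). With a pseudocount of 10, and with a fold of at least 2, 3 members were lower from day 14 to day 17. With a pseudocount of 0.1, and in cells of the shared range of genes detected, 6 were lower, Gclc among them. The mean over the 7 targets differed over that step by -3.04 with a pseudocount of 0.1 and by -1.43 with 10. From iHEC to day 14, 1 member (Nfe2l2) was lower by medians over cells. From day 17 to day 21 the number of lower members was 1 with a pseudocount of 0.1 (Srxn1), 2 by medians (Hmox1 and Gclc), 1 in cells of the shared range of genes detected (Hmox1), and 4 both as such and with no filter, where the centring falls away. As differences as such, 0 further targets were lower and 14 higher from iHEC to day 14, and 6 lower and 0 higher from day 17 to day 21. The shares of all genes lower and higher were 11.5% and 48% in the first step and 38.5% and 2.33% in the second. Without the cells low in blood genes, with or without counting pairs once, 1 further target (Gsta4) was higher from day 14 to day 17; both choices were made after seeing the data. Cells in the shared range of genes detected could not be compared from iHEC to day 14, because 1 day-14 cell was left. No paired analysis was possible because the numbers in the labels only name cells and the results come from no test. With 18 to 65 cells per group and unknown read depth, a transcript listed at 0 may have been missed.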
